A study of Rattus norvegicus with 4 samples.

Results

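The genes with many m6A peaks at baseline were 194 genes with 10 or more peaks in neonatal rat cardiac fibroblasts (CFs) that carried the empty plasmid. They were chosen by their measured number of Vector peaks, counted over the peaks that carry an NCBI gene ID, and are 194 of 7723 such genes, which is 2.51%. Together they held 2556 of the 21001 Vector peaks with a gene ID, or 12.2%. An m6A peak is a stretch of transcript in which fragments captured by an m6A antibody are in excess over the input RNA. The cells came from hearts of healthy Sprague-Dawley rats of at most 3 days of age and were collected 48 h after transfection. The Vector group is labelled wild type and received the empty plasmid, and the FTO group is labelled as overexpressing FTO, an enzyme that removes m6A. Each group had 1 m6A-IP and 1 input library and 1 peak list, so no value has a replicate error and no test was made. The sequencing depth is unknown, and the lists give the length of a peak in bp, a transcript and a gene ID. Peak position and height were not analysed here, and a peak count is neither a level of the transcript nor a share of methylated molecules.

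m6A is the most common internal modification of mRNA and is written in the nucleus by the METTL3-METTL14 complex, mainly at a short adenosine-containing motif. In mammalian mRNA it is known to be dense near the stop codon, in the 3' untranslated region and in long internal exons, while short exons near splice junctions tend to carry little of it. Reader proteins bind the mark and change splicing, export, translation or decay of the transcript, and erasers such as FTO and ALKBH5 take it off.

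Most genes of the Vector list had few peaks, with a median of 2 and with 3211 genes at 1 peak. Among the 194 genes the median was 12 and the maximum 34. There were 43 genes with 10 peaks, 32 with 11, 26 with 12, 32 with 13, 14 with 14, and 47 with 15 or more, of which 12 had 20 or more. The counts ran across the limit without a gap. Just inside the limit were the 43 genes with 10 peaks, among them Arid1a, Nsd1 and Tnc, and just outside it were 68 genes with 9, among them Col4a4, Foxp1, Kmt2d, Lamc1 and Ythdc1. A symbol was found in RefSeq (GRCr8) for 191 of the 194 genes, and all 191 are protein-coding. The other 3 gene IDs, 100911485 and 100911727 among them, had no entry there.

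The gene with the most Vector peaks was Col5a1, a chain of type V collagen, with 34, though with peaks of at least 100 bp alone it had 15 and Dst led with 27. Dst, the plakin dystonin that ties cytoskeletal filaments together, had 29. Akap9, which anchors protein kinase A at the centrosome and Golgi, and Ncor1, a co-repressor of nuclear receptors, had 23 each. Col5a2, the partner chain of Col5a1, and Ktn1, the kinesin-binding membrane protein kinectin, had 22 each. Cttn, the actin-binding protein cortactin, and Pcnt, the centrosome scaffold pericentrin, had 21 each. With peaks of at least 100 bp alone, Cttn had 12 and Pcnt kept 21. The largest unbroken stretch of Cttn in the peak order held 11 of its 21 peaks, so its rank is uncertain. The translation initiation scaffold Eif4g3, the filopodial myosin Myo10 and the nuclear basket protein Tpr had 20 each. These genes come from the matrix, the cytoskeleton, the centrosome, the nucleus and the translation machinery. Some of them, such as Pcnt and Eif4g3, are known as scaffold proteins, and protein lengths were not used here.

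The genes were sorted into 19 lists of gene classes by symbol. At least 1 list held 148 of the 194 genes (76.3%), against 2916 of the 7529 genes with 1 to 9 peaks (38.7%), and 6 of the 148 stood in 2 lists. The lists were not written to cover all genes evenly and were chosen with earlier results of these data known. A higher share among the 194 genes can thus be built into the lists, and nothing is read from it. In number of genes, chromatin and histone modifiers came first with 26, followed by the centrosome, kinetochore and mitosis list with 20, kinases and scaffolds with 18, and cytoskeletal linkers with 14. Read against the list of each class, the collagen chains had the highest share, with 6 of 22 chains that had a Vector peak (27.3%). Cytoskeletal linkers stood at 12.7%, molecular motors at 12.5%, chromatin at 12% and centrosome and mitosis at 11.2%, all above the 2.51% of all genes. The first place of the collagen chains holds with peaks of every length counted. With peaks of at least 100 bp alone, Col5a2, Col11a1, Col4a1 and Col18a1 fell under the limit. The class shares at that minimum are not given here. Since peak number chose the genes, these shares describe how the chosen genes are distributed and support nothing further.

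Collagen chains form the fibrils and networks of the extracellular matrix, the main product of activated CFs. The 6 chains with 10 or more peaks were Col5a1 with 34, Col5a2 with 22, Col11a1 with 18, Col16a1 with 15, Col18a1 with 14 and Col4a1 with 13. With peaks of at least 100 bp alone, Col5a1 kept 15 peaks and Col5a2 and Col11a1 had 7 each. Col4a1 and Col18a1 also fell under the limit of 10. Col5a2, Col11a1, Col4a1 and Col18a1 would thus not have been chosen. Types V and XI are minor fibrillar collagens that set fibril diameter, type XVI is a fibril-associated collagen, and types IV and XVIII belong to basement membranes. Col1a1, Col1a2 and Col3a1, the major fibrillar chains of fibroblasts, had no Vector peak. Among the chains below the limit, Col4a4 had 9 peaks, Col5a3 and Col4a2 had 7 each and Col6a1 had 6.

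The peaks of these chains were short and of repeated lengths. Their median was 90 bp over 116 peaks, and the medians of Col5a1 and Col11a1 were 54 bp, the lowest of all 194 genes. Triple-helical collagen repeats a Gly-X-Y triplet coded by 9 bases, and the fibrillar chains are known for coding exons of 54 bp, 108 bp, 45 bp and 99 bp. Col5a1 had 14 peaks of exactly 54 bp, 9 of 108 bp and 3 of 45 bp, so that 29 of its 34 peaks (85.3%) were multiples of 9. Col5a2 had 9 of 54 bp, 4 of 108 bp and 4 of 99 bp, and 20 of its 22 lengths (90.9%) were multiples of 9. In Col11a1, 10 of 18 peaks were 54 bp long and 6 were 108 bp long. Most lengths of these 3 chains were thus of the sizes named, with exceptions such as 502 and 163 bp in Col5a1, 225 bp in Col5a2 and 255 bp in Col11a1.

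The other chains differed from them. Multiples of 9 made up 7 of 15 peaks in Col16a1 (46.7%), 3 of 14 in Col18a1 (21.4%) and 3 of 13 in Col4a1 (23.1%). Col18a1 also had the only collagen peak of 1000 bp or more among the 6 chains, at 1196 bp. Over the 6 chains, 67.2% of the lengths were multiples of 9 and 87.9% multiples of 3. The other 188 genes had 14.8% and 43.0%, and the genes with 1 to 9 peaks 12.6% and 37.1%. The long peaks of Col5a1 lay at the ends of its series in the order of the peak numbers, 502 bp at one end and 256 bp and 171 bp at the other, with the lengths from 36 bp to 108 bp in between apart from 163, 132 and 240 bp next to the first. Whether peak ends follow exon ends was not tested, since no positions were used.

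Among other matrix genes, 2 of 54 glycoproteins and proteoglycans with a Vector peak had 10 or more (3.70%, beside 2.51% of all genes), namely Acan, the large aggregating proteoglycan aggrecan, with 11 and Tnc, the tissue-repair protein tenascin C, with 10. Acan had a peak of 3471 bp and Tnc one of 1410 bp, both far longer than the fibrillar collagen peaks. None of the 30 metalloproteinases with a peak reached the limit, a number of genes too small to read anything from, and the highest count among them was 8. In the 3 matrix lists, the genes with 10 or more peaks were thus the 6 collagen chains, Acan and Tnc. Abi3bp, a matrix protein in none of the lists and chosen here after its values were seen, had 11 peaks with a median of 75 bp. Of the 11 lengths, 10 were multiples of 3. With peaks of at least 100 bp alone it fell under the limit of 10.

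Cytoskeletal linkers join actin, microtubules and membranes, and 14 of 110 with a Vector peak were among the 194 genes. Dst had 29 peaks, Cttn 21, Erc1, a scaffold of the cell cortex, 18, Clip1, a protein of growing microtubule ends, 16, and the related Clip2 14. Macf1, which crosslinks microtubules and actin, also had 14. Macf1 had a peak of 5319 bp and Dst a peak of 5238 bp, the longest of the 194 genes, and Golgb1, a golgin, came close with 5123 bp. The remaining peaks of Dst ran from 78 bp to 1472 bp. Erc1 had a peak of 4871 bp beside a median of 150.5 bp, so a gene could combine many short peaks with a very long one.

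The 7 motors among 56 with a peak were Myo10 with 20, Myh11, the heavy chain of smooth muscle myosin, with 17, Myo18a with 16, Kif21b and the nonmuscle myosin chain Myh10 with 11 each, and the kinesins Kif13a and Kif20b with 10 each. Myosins had more peaks than kinesins among these 7, apart from Myh10 and Kif21b with equal counts. The kinesin Cenpe, placed in the centrosome list alone, had 19, so no difference between the motor families is read. The median length was 160 bp for the motors and 160 bp for the linkers.

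Centrosomes organise microtubules and kinetochores hold chromosomes to them, and 20 of 179 genes of this list with a Vector peak were among the 194. Akap9 had 23 peaks, Pcnt 21, Cenpe, a kinesin of the kinetochore, 19, Cenpf, a large kinetochore protein, 16, and Rock1, a kinase that drives contraction, 16, or 9 with peaks of at least 100 bp alone. Further centrosome proteins were Cep250 with 14, Cep290 with 13, Cep350 with 12, Cep164 and Pcm1 with 11 and Nin with 10. The list was matched by symbol and took in Ccdc93 with 15 and Cdc42bpb with 14, which are not known as mitotic genes. With peaks of at least 100 bp alone, Ccdc93 fell under the limit of 10. The length patterns of the main genes differed. Cenpe had 19 peaks between 88 bp and 291 bp, 15 of them multiples of 3, and none of 300 bp or more. Cenpf had 3 peaks of 1000 bp or more, with the longest at 3383 bp, and Pcnt had a median of 223 bp.

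Chromatin regulators, which open, close or mark nucleosomes, gave the most genes, 26 of 216 with a peak. Ncor1 had 23 peaks. Smarca2, an ATPase of the SWI/SNF remodelling complex, had 19, and its paralog Smarca4 had 15. Baz2b, a bromodomain protein, had 18, and Chd2, a chromodomain remodeller, had 17. Further SWI/SNF subunits were Arid1b with 15, Smarcc1 with 13 and Arid1a with 10. Histone-modifying enzymes followed with the demethylase Kdm3b at 15, the methyltransferases Ehmt1 at 14, Setd2 at 12 and Nsd1 at 10, and the acetyltransferase Crebbp at 11. A peak of 1000 bp or more was found in 19 of the 26 genes, against 94 of all 194 (48.5%). Arid1a had the longest median of all 194 genes, 277 bp, and Setd2 had a peak of 4283 bp.

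The list of transcription factors, matched by symbol and holding some co-activators and other genes such as Znfx1 and Tcf25, had few genes with many peaks. Of its 473 genes with a Vector peak 1 had 10 or more (0.211%, beside 2.51% of all genes), the homeodomain protein Cux1 with 17, and Foxp1 came next with 9. Cux1 had a median of 124 bp and no peak of 1000 bp or more. The whole list of factors, nearly all of them with fewer than 10 peaks, had a median of 409 bp over 1066 peaks and 32.2% of them at 1000 bp or more. All chromatin regulators with a Vector peak had a median of 196 bp over 1103 peaks and 11.1% at 1000 bp or more. The 2 classes, with similar numbers of peaks in all, thus differed in how the peaks were divided, into fewer and longer ones per factor and more and shorter ones per chromatin gene, with Cux1 an exception among the factors. Whether exon number, transcript length or transcript level accounts for this was not tested.

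The list of RNA processing and nuclear pore genes had 13 of 284 (4.58%, beside 2.51% of all genes). Tpr, the filament protein of the nuclear basket, had 20 peaks between 74 bp and 297 bp. Tnrc18, which entered this list by its symbol, had 18 with a median of 246 bp, and Upf2, a core factor of nonsense-mediated decay, had 14. Rbm33, Zc3h13 and Zc3h18 had 13 each. Zc3h13 is a subunit of the m6A writer complex and the only 1 of 18 m6A regulators with a Vector peak (5.56%, beside 2.51% of all genes) that reached the limit. A list of 18 genes is too small for that share to be read. Ythdc1, the nuclear m6A reader, had 9, Mettl14 and Virma, both subunits of the writer complex, had 6 each, and Wtap, a further subunit, had 4. Alkbh5 had 2.

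Translation genes numbered 4 of 79 (5.06%, beside 2.51% of all genes), with Eif4g3 at 20, Eif4ebp3 at 14, the release factor Gspt1 at 12 and Eif3a, the largest subunit of initiation factor eIF3, at 11. Eif4ebp3 codes for a small inhibitor of cap-dependent initiation. Its 14 peaks lay on 3 transcripts and reached 1613 bp. The gene is known for read-through transcripts from its large neighbour Ankhd1, and no gene ID of Ankhd1 was found in the Vector list, so the peaks of the 2 genes cannot be told apart. For Gspt1 the largest unbroken stretch in the peak order held 7 peaks, under the limit of 10. With Eif4ebp3 and Gspt1 in doubt, the share of this list is not read as above that of all genes. Gigyf2, a translational repressor in none of the lists, had 17.

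Genes of vesicle traffic and membranes had 12 of 316 among the 194 (3.80%, beside 2.51% of all genes). Ktn1 had 22 peaks with a median of 91 bp, and 4 of its peaks were exactly 91 bp long. With peaks of at least 100 bp alone it had 9. The golgins Golga4 with 18, Golgb1 with 17 and Golga3 with 15 tether vesicles at the Golgi. With peaks of at least 100 bp alone, Golga4 had 11 and Golgb1 14. Eea1, the tether of early endosomes, and Hip1, an endocytic clathrin adaptor, had 13 each, as had Rabep1, Rrbp1 and Sh3kbp1. Golgb1 had 3 peaks of 1000 bp or more, the longest at 5123 bp, and Golga4 had one of 4196 bp, whereas Golga3 had none above 647 bp. The 3 golgins thus differed widely in their longest peak.

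Kinases and scaffolds had 18 of 288 (6.25%, beside 2.51% of all genes). Apart from Akap9, the highest counts were Dlg5, a scaffold of cell polarity, with 19, Pde4dip, the centrosome and Golgi protein myomegalin, with 16, Ppfia1, the focal adhesion scaffold liprin alpha 1, with 15, and Magi1 and Stk10 with 14 each.

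Receptors and adhesion proteins had 8 of 195 (4.10%, beside 2.51% of all genes). Lrp5, a co-receptor of Wnt ligands, had 16 peaks, and Ptprm, a receptor tyrosine phosphatase, and Robo1, a receptor of Slit ligands, had 12 each. Antxr1, a collagen-binding receptor, Cdh11, the cadherin of mesenchymal cells, Nrp1, Ptprc and Ptprf had 10 each. Antxr1 and Ptprf lay at opposite ends of the length scale, with medians of 81.5 bp and 262 bp. Ubiquitin ligases and deubiquitinases had 5 of 243 (2.06%), near the 2.51% of all genes, and these were Usp47 with 14, Mycbp2 with 13, Huwe1 with 11 and Rnf213 and Usp25 with 10 each. DNA replication and repair had 3 of 97 (3.09%), also near that share, namely Rad50, a subunit of the complex that senses double-strand breaks, with 15, and the checkpoint mediator Clspn and the ligase Lig1 with 13 each.

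Genes of the ribosomal and respiratory chain list and of the transport list had few peaks each. None of the 90 genes with a peak in the ribosomal and respiratory chain list reached the limit, beside 2.51% of all genes. That number of genes is too small to read anything from. The highest count, 9, belonged to Rps6ka2, a kinase that its symbol had placed there, as it had Rps6kc1 with 8. Of 197 solute carriers, pumps and channels with a peak 1 reached it, the scramblase Ano6 with 11 (0.508%, beside the same 2.51%). The median in both lists was 1 peak per gene.

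The 46 genes in no list include further known functions, which were grouped after the values were seen. Evc2 with 15, Dzip1 with 14, Evc with 12 and Ift74 with 10 are genes of the primary cilium, which transmits Hedgehog signals. Tcof1 with 15, Mdn1 with 12 and Bms1 with 10 act in ribosome biogenesis. Bdp1, a subunit of the RNA polymerase III factor TFIIIB, had 16, and Asph, a hydroxylase of the endoplasmic reticulum, had 15 peaks on 5 transcripts, the most transcripts of any of the 194 genes, with a median of 87 bp. App, the amyloid precursor protein, and Top1, the topoisomerase that relaxes DNA in transcription, had 12 each. Cast, the calpain inhibitor calpastatin, had 10 peaks, all of them multiples of 3 in length.

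Peak lengths of the 194 genes were short as a whole. The median over the 2556 peaks was 153 bp, the middle 50% ran from 109 to 219 bp, and the range from 15 bp in Ank2 to 5319 bp in Macf1. The other 18445 peaks with a gene ID, on genes with 1 to 9 peaks, had a median of 215 bp and a middle 50% from 134 to 614 bp. Peaks under 200 bp made up 69.5% (1777 peaks) in the 194 genes and 46.5% in the rest. Peaks of 1000 bp or more made up 4.69% (120 peaks) and 15.5%. The upper quartiles were further apart than the lower ones, so the 2 sets differed more among their long peaks than among their short ones.

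The length of a peak fell with the number of peaks on its gene. Genes with 1 peak had a median of 565 bp, genes with 2 to 4 peaks 228 bp, genes with 5 to 9 peaks 167 bp, genes with 10 to 14 peaks 153 bp and genes with 15 or more 151.5 bp. Most of the fall was complete below 10 peaks. The median of the gene medians did not fall at the last step, with 151.5 bp for 10 to 14 peaks and 164 bp for 15 or more. The 194 genes therefore lay at the end of a gradient through the whole list. The length summed over all peaks of a gene rose along the same steps, with medians of 565, 1073, 1871, 3061 and 3740 bp. A sum over more peaks is larger by itself, so this rise partly follows from the peak number that set the steps and chose the 194 genes. The median gene had 3322.5 bp under peaks among the 194 and 952 bp among the rest.

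Long peaks were not missing from genes with many peaks. A gene with more peaks has more chances of a long one, so the following values per gene partly follow from the peak number that chose the genes, while per peak long ones were fewer, at 4.69% against 15.5%. A peak of 1000 bp or more was present in 94 of the 194 genes (48.5%), in 455 of the 1049 genes with 5 to 9 peaks (43.4%) and in 2647 of all 7529 genes with 1 to 9 (35.2%). Within the 194 the share was 51.0% for genes with 10 to 14 peaks and 40.4% for genes with 15 or more, so it did not rise throughout. The median length of the longest peak was 955 bp in the 194 genes and 660 bp in the rest, and within the 194 it was 1100 bp with 10 to 14 peaks and 822 bp with 15 or more. Many of the 194 genes thus joined a series of short peaks with a long one. In 111 genes (57.2%) the longest peak was the first or the last in the order of the peak numbers, which was the case in 66.7% of the genes with 5 to 9 peaks, where fewer peaks make an end place more frequent by itself. Strand was not used, so the end with the stop codon was not determined.

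The genes differed in their own medians. The median of the gene medians was 154.5 bp, and 151 genes lay between 100 and 200 bp, 12 below and 31 above. The shortest medians belonged to Col5a1 and Col11a1 with 54 bp, Abi3bp with 75 bp, Antxr1 with 81.5 bp and Asph with 87 bp. At the other end stood Arid1a with 277 bp, the neuron navigator proteins Nav1 with 265.5 bp and Nav2 with 263 bp, Ptprf with 262 bp and Sipa1l1 with 255 bp. Genes with like numbers of peaks thus differed in typical peak length. No peak of 300 bp or more was found in 35 genes, Cttn and Tpr among them, while 22 had a peak of 3000 bp or more.

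Multiples of 3 made up 45.0% of the lengths in the 194 genes and 37.1% in the genes with 1 to 9 peaks. Among genes with 15 or more peaks the share was 50.4%, and among those with 10 to 14 it was 42.4%. It stayed at 43.0% when the 6 collagen chains were set aside, so the collagens made up part of the excess over the rest and not all of it. Coding exons that keep the reading frame have lengths of this kind, and whether the peaks are such exons was not tested.

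In some genes the same peak lengths came back in the same order, or the peaks of other genes lay between their own. The 21 peaks of Cttn lay on 4 transcripts and in 2 stretches of the peak order, of 11 and 10 peaks, with 30 peaks of other genes between them. A run of 6 lengths was repeated between 2 of its transcripts, and 8 of the 21 peaks were exactly 111 bp long. Across transcripts, the later stretch repeated 56, 111, 111, 111, 55, 111, 130 and 87 bp of the earlier one in the same order. Cortactin is built of a repeated actin-binding motif, and Hcls1, its paralog in blood cells, shared a run of 4 lengths with it. Whether the same peaks were listed on 2 copies was not tested, and the largest stretch alone would give Cttn 11. For Nol8, Srp68 and Gspt1 the largest stretch held 6, 9 and 7 peaks, under the limit of 10, and for Arhgap23 it held 9. Runs of 3 or more lengths were also repeated between transcripts of Srp68, Arid4b and Nol8.

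Paralogs shared runs of lengths as well. Col5a1 and Col11a1 shared a run of 5, Col5a1 and Col5a2 one of 4, Stk10 and Slk one of 4, and Ptprf and Ptprd one of 3. Such runs mean that neighbouring peaks had the same lengths, in the same or the opposite order, in both genes. In Col5a1, Col5a2 and Col11a1 the lengths of 54 and 108 bp recur so often that shared runs can arise from them alone. No expected length of a shared run was computed, so nothing further is read from these runs. The gene ID 100911485, with 10 peaks, shared a run of 6 with Mfn2, which codes for the mitochondrial fusion protein mitofusin 2 and had 11. Whether that ID is a second copy of Mfn2 was not determined. In the same way 100911727, with 11 peaks, shared runs of 3 with both Lig1 and Cep290. All peaks lay on 1 transcript in 113 of the 194 genes (58.2%), and 161 had at least 10 on 1 transcript. All peaks lay on 1 transcript in 75.5% of the genes with 5 to 9 peaks. The share was 90.0% in the genes with 1 to 9, which include those with 1 peak.

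The peak numbers show how closely the listed peaks of a gene followed each other. Between the first and the last peak of a gene, a median of 76.5% of the numbers was listed for it. The median was 71.4% for genes with 5 to 9 peaks and 80% for genes with 2 to 4, so the 194 genes did not stand apart in this. All numbers were listed for 14 genes, among them Golgb1, Cenpf and Golga3. Fewer than 50% were listed for 17, and the lowest shares were 16.4% in Kalrn and 19.6% in Ctif. The numbers missing from the list were not used here, and what they stand for is not given in the sources used.

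The FTO list is given beside these counts as side information. Fewer FTO than Vector peaks were listed for 158 of the 194 genes (81.4%), as many for 17 and more for 19 (9.79%). Among all 7723 genes with a gene ID the shares were 46% with fewer and 13% with more. The genes were chosen for high Vector counts, which pulls such a comparison towards fewer FTO peaks, and the FTO list is shorter as a whole, so nothing is read from the difference. After scaling the FTO counts by 1.194, which evens out the list sizes, 57.2% had fewer. With a minimum peak length of 200 bp, 66 genes had fewer, 104 as many and 24 more. That minimum left 779 Vector and 702 FTO peaks in these genes, and genes with equal counts rose from 17 to 104. Lower counts make equal counts more frequent, so nothing is read from this lower share either.

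In the FTO list 106 of the 194 genes again had 10 or more peaks, which is 54.6% of the 194 and 85.5% of the 124 FTO genes with as many. Among the genes at the top, Col5a1 had 34 Vector and 29 FTO peaks, Dst 29 and 25, Akap9 23 and 20, Ncor1 23 and 19, Col5a2 22 and 21, and Ktn1 22 and 19. Cttn had 21 and 17, Pcnt 21 and 13, Myo10 20 and 15, and Eif4g3 20 and 20. The widest gaps were those of Col11a1 with 18 and 6, Tpr with 20 and 8, Cenpe with 19 and 8, Cit, the citron kinase of cytokinesis, with 15 and 4, and Clspn with 13 and 2. Acan, with 11 Vector peaks, was the only gene of the 194 without an FTO peak. More FTO peaks were listed for Cep164, with 11 and 14, and for Myh10, with 11 and 13, and Arhgap21 and Tbc1d9b had 10 and 12 each.

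Of the 2556 Vector peaks in the 194 genes, 1759 matched an FTO peak of that gene in length to the base pair, which is 68.8% of these Vector peaks and 88.8% of the 1980 FTO peaks of the same genes. In the genes with 1 to 9 peaks 55.7% did, but 1388 of those 7529 genes had no FTO peak, against 1 of the 194, and a gene with more FTO peaks has more lengths to match, so the 2 shares are not comparable. For 73 of the 193 genes with an FTO peak, every FTO length was also a Vector length. The FTO median length was 162 bp in these genes and 246 bp in the other genes, so the genes with many Vector peaks had short peaks in that list too. Both lists come from the same kind of cells and each rests on 1 library pair.

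The labelled cell type was checked with marker genes, as far as a peak list allows. Of 13 fibroblast markers 7 had a Vector peak, led by Pdgfra, the receptor that marks cardiac fibroblasts, with 7 peaks, and followed by Fn1 with 3 and Thy1 with 2. Pdgfrb, Tcf21, Lum and Postn had 1 each. Defining genes such as Col1a1, Col1a2, Col3a1, Dcn, Vim and Ddr2 had none, and the list summed to 16 peaks. Cardiomyocyte markers had a peak in 6 of 10, summing to 23, with Myh7 at 8, Myh6 at 7 and Tnnt2 at 4, while Actc1, Ttn, Nppa and Pln had none. Immune markers had a peak in 5 of 7, summing to 16, of which Ptprc, the leukocyte antigen CD45, had 10, and Cd68 and Adgre1 had none. No Vector peak was listed for 7 endothelial and 4 Schwann cell markers, and of these Tek had 2 FTO peaks. Among 6 smooth muscle markers Myh11 had 17 peaks and Acta2, Tagln, Cnn1, Rgs5 and Des had none, and of 4 epicardial markers Tbx18 had 2.

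The Vector peaks therefore do not single out fibroblasts by these markers. Within the 194 genes, Myh11 and Ptprc are the markers of other cell types, and no fibroblast or cardiomyocyte marker reached 10 peaks. A transcript without m6A has no peak at any level, and expression was not analysed here. The part of other cells in the peaks of Myh11 and Ptprc was not tested.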

How the data were processed

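m6A-seq libraries of neonatal rat CFs comprised 1 m6A-IP and 1 input library for Vector and for FTO. The authors deposited 1 list per group, whose measurement is the peak length in bp, not normalized. The submitters' processing notes name cutadapt 1.9.3, HISAT2 2.0.4 and build rn6. Peak names carry the prefix MACS, and the caller's settings, threshold and annotation release are not given in the sources used here. Vector peaks were grouped by gene ID, and genes with 10 or more were kept. The 21249 Vector and 17796 FTO peaks give no depth. Symbols came from RefSeq (GRCr8), which matched 7489 of 7723 gene IDs and was used for names only. The 19 class lists were matched by symbol. The genes and lists were chosen with earlier results of these data known. Named genes were the 30 with the most peaks, ties included, up to 5 per list, the extremes of median length, longest peak and FTO difference, up to 5 genes at 9 peaks, the markers and the m6A regulators. Further genes were named after their values were seen. Some genes and the result of 1 class list are not reported here. Counting was tested on simulated lists. Peaks per protein length had been planned and were not computed, since no protein lengths were used here. Python 3.11.15, pandas 2.3.3, numpy 2.4.6 and scipy 1.17.1 were used.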

Additional observations from a re-analysis of the deposited data

Results flagged for a closer look

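The counts above leave out 248 Vector peaks that carry a transcript and no gene ID. They lay on 171 transcripts, and the transcript with the most had 9 Vector peaks and 8 FTO peaks, 1 short of the limit of 10. No such transcript would therefore have joined the genes with many peaks if transcripts had been counted as genes. They were singled out because they are a signal outside the genes counted, and their genes were not determined.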

How the results depend on the processing

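The number of genes with 10 or more peaks depended on the short peaks and on the limit. It was 194 as reported, 117 with peaks of at least 100 bp and 6 with peaks of at least 200 bp, these being Pcnt with 15, Dst with 13, Akap9 and Tnrc18 with 12, and Cenpe and Macf1 with 10. It was 375 for 8 or more peaks, 119 for 12 or more and 124 in the FTO list. Distinct peak names gave 194, grouping by transcript 161, and, chosen after seeing the data, grouping by symbol 193 and splitting at peaks of other genes 190. The median length of 153 bp was 173 bp with peaks of at least 100 bp, which follows from leaving out the shorter ones, 154.5 bp over gene medians and 156 bp without the collagen chains, the last chosen after seeing the data. The share with fewer FTO peaks, 81.4%, was 34.0% with peaks of at least 200 bp and 57.2% with FTO counts scaled to the list sizes. The share of genes in a class list, 76.3%, was 70.1% for 8 or more peaks, 83.2% for 12 or more, 82.1% with peaks of at least 100 bp and 100% with peaks of at least 200 bp, all chosen after seeing the data. The cause was not tested, and the lists were chosen with earlier results of these data known, so nothing is read from these shares. Of the 33 genes with the most peaks, 8 changed by more than 1.5 times with peaks of at least 100 bp and 31 with peaks of at least 200 bp, all downwards. At the 100 bp minimum, 4 of these 33 fell under the limit of 10, namely Col5a2, Col11a1, Ktn1 and Rock1. Outside these 33, Col4a1, Col18a1, Asph, Abi3bp and Ccdc93 were among the genes that fell under it.

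Peaks per 1000 residues, for which minimum lengths of 100 and 200 bp and a limit of 12 peaks had been set as alternatives, were not computed. No replicate could be left out, since each peak list rests on a lone library pair. No paired analysis was possible because the lists give lengths of peaks without replicates and no test was made. Unknown depth limits every peak count.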
